A study of Mus musculus with 9 samples.

Results

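The 8 genes described are the mouse members of the ZFP36 and BTG/TOB families of mRNA decay regulators: Zfp36, Zfp36l1, Zfp36l2, Btg1, Btg2, Btg3, Tob1 and Tob2. They were taken by Ensembl identifier from the 48526 genes of the count table, and each of the 8 had a row. The samples were NSCs isolated from the SEZ of adult wild-type mice (C57BL/6 in the labels, C57BL/6J in the methods), grown as neurospheres in culture and studied before EGF withdrawal (0 h) and 1 h and 6 h after it. For differentiation, single cells were seeded on Matrigel with FGF kept and EGF absent. The methods describe a day on the substrate in complete medium before the change for cells that were fixed at early times. They do not say this of the cells taken for RNA, so the part of seeding in the changes was not tested. No library came from cells kept in EGF for 1 h or 6 h. Loss of EGF therefore cannot be told apart from the change of medium, handling or time. Each time point had 3 libraries, numbered 1 to 3 in the labels. How many animals or cultures stand behind a number is not stated. The p-values of the main fit measure the spread left between these libraries once differences between the numbers are removed. That spread may be technical.

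ZFP36 proteins hold a pair of CCCH zinc fingers that bind AU-rich elements in the 3′ UTR of short-lived mRNAs and bring the CCR4-NOT deadenylase to them. BTG and TOB proteins share a domain that binds the CAF1 deadenylases CNOT7 and CNOT8, and through contacts with poly(A)-binding protein they speed up poly(A) shortening. Both families are known as immediate or delayed early genes in many cells, and the BTG/TOB genes are also known for slowing proliferation. Btg2 is a classical marker of neural progenitors that are about to divide into neurons.

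The ZFP36 mRNAs carry the kind of element that their own proteins bind. In the 3′ UTR of the principal GENCODE M21 transcript, Zfp36, Zfp36l1 and Zfp36l2 each held 1 copy of the nonamer TTATTTATT and 3 copies of the shorter TATTTAT, counted with overlap and on the transcript strand. None of the 5 BTG/TOB 3′ UTRs held the nonamer, while Btg3 had 2 copies of TATTTAT, Btg2 and Tob2 had 1 each and Btg1 and Tob1 had 0. Among the 13998 tested genes with a 3′ UTR, 7.55% held the nonamer, 28.8% TATTTAT and 67.5% the core ATTTA, which all 8 members held. The median 3′ UTR of the members was 1828 bases against 1034 over the tested genes, and those of Zfp36 (774), Tob1 (767) and Btg3 (439) were shorter than the latter. The 3 nonamers are shown with 8 bases on either side, on the transcript strand with T for U and the nonamer in capitals. They lie on GRCm38 at chr7:28376953-28376977, chr12:80108169-80108193 and chr17:84184916-84184940, all 3 on the minus strand.
Zfp36: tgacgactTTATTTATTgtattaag
Zfp36l1: ctgttggaTTATTTATTttagaaat
Zfp36l2: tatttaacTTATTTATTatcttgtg
These letters are a description of the transcripts and were not tested as binding sites.

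The genes are compact. Of the 8, 7 have 2 exons in their principal transcript, an arrangement found in 4.89% of the 14210 tested protein-coding genes, and these 7 span 3470 to 10525 bases against a median span of 25070. Btg3, with 5 exons over 44556 bases, was the exception. Some members overlap other genes, and since the strand setting of the counting is not given in the sources used here, reads from opposite strands could be shared. The overlapping genes with a row were Gm44710 at Zfp36 (4 to 15 counts per library), Gm26669 at Zfp36l1 (10 to 47 counts) and Cxadr at Btg3 (10161 to 16969 counts). The last exceeds Btg3 itself, which had 410 to 638 counts, so the Btg3 values are uncertain. Among close relatives, the pseudogene Zfp36l1-ps had 3 to 25 counts, Btg4 0 to 4, and Zfp36l3, Btg1-ps1 and Btg1-ps2 were at 0 in each of the 9 libraries.

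Total counts were 65871454 to 105592597 per library. The members had between 175 and 26561 counts in a library, so that all 8 passed the filter on low counts. NSC markers were high, with 9 of 9 tested and a summed level of 6810 to 9730 CPM (counts scaled to a fixed total after TMM correction of library size) over the 9 libraries. The 6 microglial markers summed to 0.258 to 0.351 CPM at 0 h, 0.375 to 0.569 at 1 h and 0.122 to 0.317 at 6 h. The 4 endothelial markers summed to 1.95 to 14.8, 2.38 to 14.1 and 1.46 to 7.37 CPM at the same times, nearly all of it Flt1, while Cldn5 and Cdh5 averaged 0.00244 and 0.0106 CPM. The 4 ependymal markers, mostly Foxj1, summed to 46.7 to 88.0, 52.2 to 92.8 and 39.0 to 60.5 CPM, and the 4 oligodendrocyte markers to 5.30 to 5.88, 4.43 to 5.58 and 7.36 to 7.50 CPM. The 5 neuronal markers summed to 831 to 1560 CPM over the 9 libraries, mostly Map2 (a mean of 1120 CPM). Syt1 averaged 39.9 CPM, Rbfox3 3.60 CPM, Snap25 2.09 CPM and Stmn2 0.275 CPM. The part of these cells in the results was not tested. In bulk RNA, fewer cells of a type and less RNA per cell cannot be told apart.

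Compared per length, Btg2 was the most abundant member. Its level before withdrawal was 47.6 ± 4.55 CPM per kb of exon (SD, n = 3), followed by Tob1 with 27.9 ± 0.722, Zfp36l2 with 20.9 ± 4.27 and Btg1 with 8.79 ± 2.02. Lower levels were found for Zfp36l1 (5.52 ± 0.0629 CPM per kb), Tob2 (4.36 ± 0.725), Btg3 (1.565 ± 0.127) and Zfp36 (0.787 ± 0.112). At 0 h and at 6 h no pair of neighbours in this order overlapped between libraries. At 1 h, Zfp36l2 (14.2 to 19.5 CPM per kb) overlapped Btg1 (10.8 to 16.4), and Btg3 (1.60 to 2.21) overlapped Zfp36 (1.74 to 1.76). These levels rest on the union of annotated exons of each gene. For Tob2 and Btg3 that union (6664 and 4014 bases) exceeds the principal transcript (4151 and 1414 bases). It also does for Zfp36 (3470 against 2790 bases) and Btg1 (5276 against 5001). For Zfp36 the union equals the span of the gene, so that reads from its intron count as exon. The part of unspliced RNA in its values was not tested. The order of the lower members and the family shares given below depend on this choice of length.

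**Figure D1:**
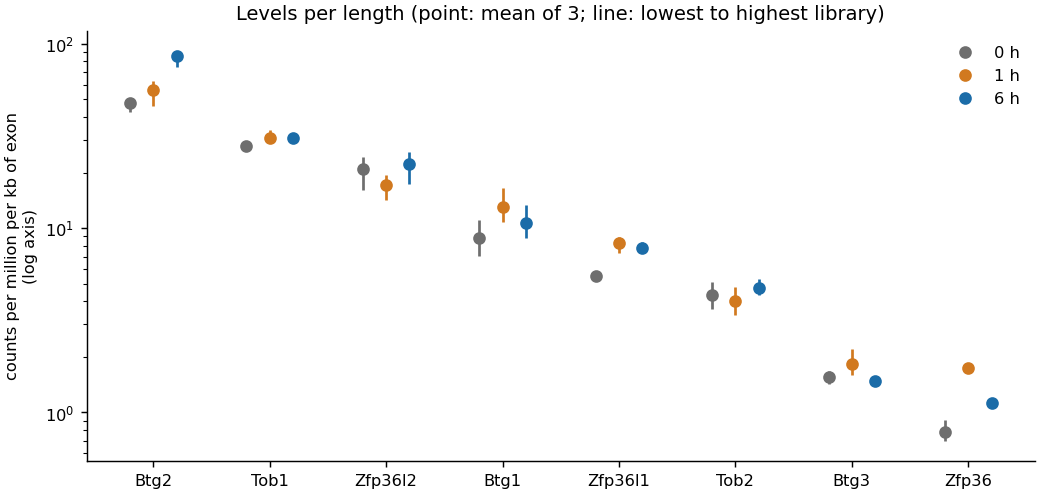
Level of each member in CPM per kb of exon, on a log axis, ordered by the 0 h mean, with points for the mean of 3 libraries and lines from the lowest to the highest library. Btg2 stands highest at each time, with a mean of 85.4 at 6 h, and Zfp36 is lowest at 0 h with 0.787.

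Which members differed between the times was asked with 3 comparisons in 1 fit (edgeR's quasi-likelihood test with the replicate number as a block, Benjamini-Hochberg adjustment over 18858 genes, threshold 0.05). At 1 h, Zfp36, Zfp36l1, Btg1 and Btg2 were higher and Zfp36l2 was lower than at 0 h. Thus 4 of 8 members were higher and 1 lower, against 1.36% of all tested genes higher and 2.14% lower. At 6 h the same 4 genes were higher than at 0 h and 0 were lower, against 17.4% of tested genes higher and 17.5% lower. No member was lower at an unadjusted p under 0.05 either, or with DESeq2. Between 1 h and 6 h, 3 members (Zfp36l2, Btg2 and Tob2) were higher at 6 h and 3 (Zfp36, Btg1 and Btg3) were lower, against 18.0% and 17.5% of tested genes. The comparisons with 0 h share the 0 h libraries. As the members were chosen with earlier results of these data known, their counts beside the shares of all genes are a description.

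These calls rested on the pairing of libraries by number. Without the replicate block, edgeR called 0 members at 1 h (3 at an unadjusted p under 0.05), 2 at 6 h against 0 h and 0 at 6 h against 1 h (2 at an unadjusted p under 0.05). The share of all tested genes called fell as well, to 0.0424%, 2.42% and 2.14% in both directions. DESeq2 without the block called 2, 3 and 2 members. Over all genes it called 51 higher and 22 lower, 807 and 675, and 829 and 596 in these comparisons. The share of all genes at an unadjusted p under 0.05 was not computed. Without 0 h replicate 1 or without 0 h replicate 3, the count at 1 h against 0 h was 3 rather than 5.

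**Figure D2:**
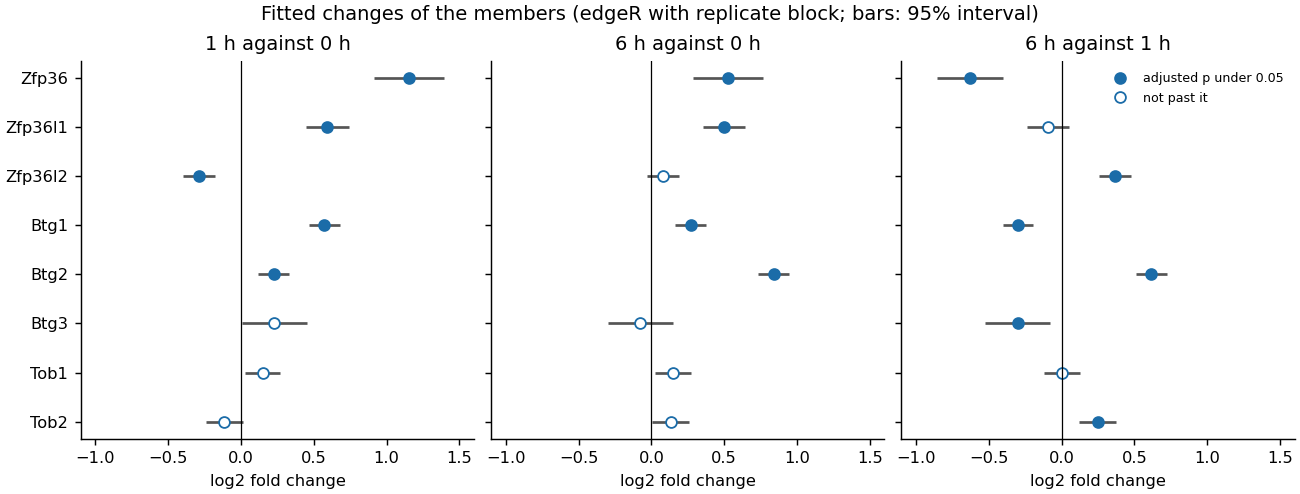
Fitted log2 fold change of each member in the 3 comparisons, with bars for the 95% interval. Filled points passed an adjusted p of 0.05 (edgeR with replicate block), as for Zfp36 at 1 h (1.15) and Btg2 at 6 h (0.84), and open points did not.

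Among the ZFP36 genes, Zfp36 itself, which encodes tristetraprolin, had the largest change at 1 h. It stood at 2.42, 2.61 and 3.16 CPM at 0 h in replicates 1, 2 and 3, at 6.05, 6.10 and 6.03 CPM at 1 h and at 3.91, 4.135 and 3.73 CPM at 6 h. The 3 groups did not overlap, and the 6 h libraries lay between the others. Zfp36 was 2.22-fold higher at 1 h than at 0 h (log2 fold change 1.15, SE 0.11, edgeR adjusted p = 6.7e-05) and still higher at 6 h (log2 fold change 0.52, SE 0.11, edgeR adjusted p = 0.00277). From 1 h to 6 h it fell by 0.63 on the log2 scale (SE 0.10, edgeR adjusted p = 0.000533), in 3 of 3 replicates. Without the block the edgeR adjusted p was 0.0604, 0.102 and 0.0659 in these comparisons.

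The promoter of Zfp36 in RefSeq (GRCm38.p6, chr7:28379179-28379478, minus strand, 250 bases before the start site to 50 after) is shown because this gene had the largest early change. GENCODE M21 places the end of the gene farther upstream, at 28380253. Capitals mark matches to an SRF CArG box, at -58 to -49 from the start site, and to an EGR motif (GCGNGGGCG), at -105 to -97. In 32851 RefSeq promoters of 300 bases, searched on both strands, 1.63% held the CArG box and 5.55% the EGR motif. CArG boxes bind SRF, a factor known for driving immediate early genes.
Zfp36: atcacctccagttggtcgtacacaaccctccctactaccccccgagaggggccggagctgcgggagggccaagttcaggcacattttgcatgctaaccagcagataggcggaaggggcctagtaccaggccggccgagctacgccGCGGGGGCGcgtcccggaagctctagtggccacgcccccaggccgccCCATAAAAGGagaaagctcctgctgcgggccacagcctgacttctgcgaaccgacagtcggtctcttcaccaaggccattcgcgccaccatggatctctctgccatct

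Zfp36l1, whose protein binds the same elements, rose with a different course. Its levels were 16.7, 16.4 and 16.4 CPM at 0 h, 26.1, 26.8 and 21.9 at 1 h and 23.1, 24.97 and 21.9 at 6 h. The libraries of 1 h and 6 h overlapped each other and all lay above those of 0 h. The gene was 1.51-fold higher at 1 h (log2 fold change 0.59, SE 0.07, edgeR adjusted p = 0.000333; 0.210 without the block) and 1.41-fold higher at 6 h (log2 fold change 0.50, SE 0.07, edgeR adjusted p = 0.00011; 0.0445 without the block). The difference between 6 h and 1 h was -0.09 (95% interval -0.24 to 0.05, edgeR adjusted p = 0.298).

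Zfp36l2, the most abundant of the 3 per length, moved the other way. It had 85.2, 56.8 and 79.8 CPM at 0 h, 68.8, 50.0 and 61.8 at 1 h and 91.0, 61.0 and 82.5 at 6 h. The groups overlapped because replicate 2 was low at every time, but within each replicate the 1 h library was the lowest. The gene fell by 0.29 on the log2 scale at 1 h (SE 0.05, edgeR adjusted p = 0.00731; 0.9998 without the block) and was higher at 6 h than at 1 h by 0.37 (SE 0.05, edgeR adjusted p = 0.000122; 0.385 without the block). Leaving out 0 h replicate 1 or 3 gave the fall at 1 h an adjusted p of 0.0581 or 0.079, and leaving out 1 h replicate 1 gave 0.0529. Between 6 h and 0 h the difference was 0.08 (95% interval -0.03 to 0.19, edgeR adjusted p = 0.237).

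The share of each gene in the family followed these courses. Per length, Zfp36l2 made up 76.5 ± 3.82% of the ZFP36 family at 0 h, 62.6 ± 4.96% at 1 h and 70.8 ± 5.55% at 6 h (SD, n = 3). Zfp36l1 took 20.6 ± 3.39%, 30.9 ± 4.50% and 25.5 ± 4.90%, and Zfp36 took 2.93 ± 0.568%, 6.47 ± 0.625% and 3.69 ± 0.654%. The Zfp36 share at 1 h (5.82 to 7.06%) lay above the shares at 0 h (2.29 to 3.37%) and at 6 h (3.25 to 4.45%) in all libraries. The family sum was 27.3 ± 4.33, 27.1 ± 2.58 and 31.1 ± 3.96 CPM per kb. These shares were not tested.

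**Figure D3:**
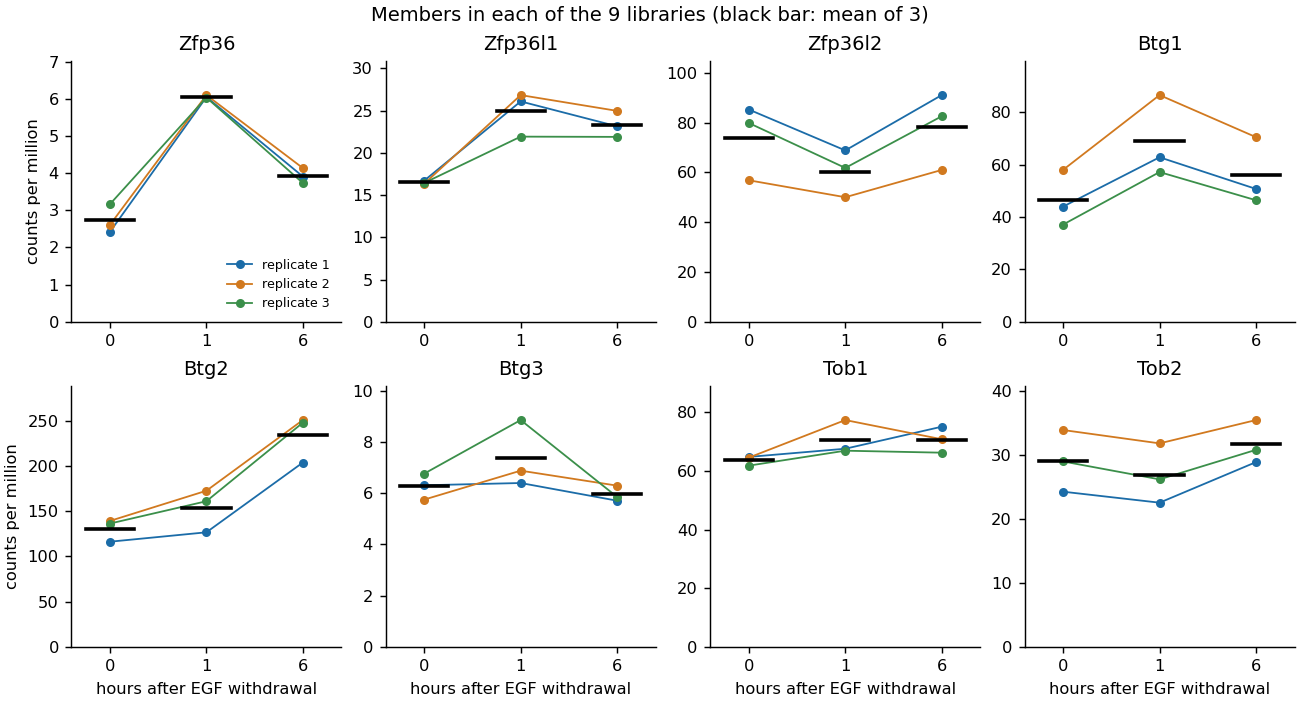
CPM of each member in the 9 libraries against the hours after EGF withdrawal, with lines joining the libraries of a replicate number and black bars for the mean of 3. Zfp36 and Btg1 are highest at 1 h in each replicate, Zfp36l2 is lowest at 1 h in each, and Btg2 is highest at 6 h with a mean of 234 CPM.

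Among the BTG genes, Btg1 peaked at 1 h. It had 44.0, 58.1 and 37.1 CPM at 0 h, 62.9, 86.6 and 57.2 at 1 h and 50.8, 70.5 and 46.4 at 6 h. The groups overlapped, with replicate 2 highest at every time, and each replicate rose and then declined. The change at 1 h was 1.49-fold (log2 fold change 0.57, SE 0.05, edgeR adjusted p = 2.27e-05; 0.9998 without the block). At 6 h Btg1 was 1.21-fold higher than at 0 h (log2 fold change 0.27, SE 0.05, edgeR adjusted p = 0.000903; 0.629 without the block). From 1 h to 6 h it fell by 0.30 on the log2 scale (SE 0.05, edgeR adjusted p = 0.000395; 0.567 without the block).

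Btg2 had the largest rise by 6 h. Its levels were 116, 139 and 136 CPM at 0 h, 127, 173 and 161 at 1 h and 204, 251 and 248 at 6 h. Libraries of 0 h and 1 h overlapped, and all 3 of 6 h lay above both. The gene was 1.17-fold higher at 1 h (log2 fold change 0.23, SE 0.05, edgeR adjusted p = 0.0236; 0.9998 without the block). It was 1.79-fold higher at 6 h than at 0 h (log2 fold change 0.84, SE 0.05, edgeR adjusted p = 1.22e-07; 0.0266 without the block) and 1.53-fold higher at 6 h than at 1 h (edgeR adjusted p = 1.77e-06; 0.0646 without the block). The small change at 1 h had an adjusted p of 0.0721, 0.215 and 0.163 without 0 h replicates 1, 2 and 3 in turn, and of 0.14 without 1 h replicate 2.

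The promoters of Btg1 and Btg2 are shown as the BTG genes that rose early and late (RefSeq, GRCm38.p6). That of Btg1 lies at chr10:96616751-96617050 on the plus strand and held the FOXO motif TGTTTAC at -204 to -198 and a TATA box (TATAAA) at -26 to -21. FOXO factors are known to be held out of the nucleus by growth factor signalling through AKT. That of Btg2 lies at chr1:134079106-134079405 on the minus strand and held the cAMP response element TGACGTCA at -166 to -159 and an EGR motif at -131 to -123. Of all 32851 promoters, 3.65% held the FOXO motif, 13.6% the TATA box and 1.79% the cAMP response element. Matches are in capitals.
Btg1: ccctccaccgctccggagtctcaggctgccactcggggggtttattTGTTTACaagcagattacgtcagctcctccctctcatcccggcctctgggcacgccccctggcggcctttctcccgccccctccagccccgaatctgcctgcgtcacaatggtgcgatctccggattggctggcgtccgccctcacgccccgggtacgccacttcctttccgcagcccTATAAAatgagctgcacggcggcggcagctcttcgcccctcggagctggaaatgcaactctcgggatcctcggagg
Btg2: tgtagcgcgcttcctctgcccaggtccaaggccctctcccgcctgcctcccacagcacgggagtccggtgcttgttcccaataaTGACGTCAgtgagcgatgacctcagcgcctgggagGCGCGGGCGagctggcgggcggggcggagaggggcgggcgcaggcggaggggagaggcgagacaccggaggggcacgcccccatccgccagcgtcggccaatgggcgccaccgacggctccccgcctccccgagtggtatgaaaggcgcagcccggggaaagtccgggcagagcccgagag
The same search, which also covered an NF-kB motif (4.51% of promoters) and the AP-1 motif TGANTCA (7.81%), found AP-1 and TATA letters at Zfp36l1, TATA at Tob1, NF-kB in 1 of the 2 Btg3 promoters and no match at Tob2. The motifs found did not overlap one another. Matches describe letters only.

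Btg3, a less abundant BTG gene, had 6.32, 5.76 and 6.77 CPM at 0 h, 6.41, 6.89 and 8.87 at 1 h and 5.71, 6.30 and 5.86 at 6 h. The 1 h libraries lay above those of 6 h, with replicate 3 at 1 h the highest. The difference at 1 h was 0.23 (95% interval 0.003 to 0.45, edgeR adjusted p = 0.267) and at 6 h -0.07 (95% interval -0.30 to 0.15, edgeR adjusted p = 0.624). From 1 h to 6 h it fell by 0.30 on the log2 scale (SE 0.10, edgeR adjusted p = 0.0355; 0.336 without the block). Without 1 h replicate 3 this adjusted p was 0.177, and without 6 h replicate 3 it was 0.219. It was 0.0566 with library totals, 0.0559 in the 6 libraries compared and 0.0547 with GC content and length trends removed. It was 0.0561 without 0 h replicate 3, and 0.0616 and 0.0812 with the loss of 1 h replicate 2 and 6 h replicate 1.

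The TOB genes, whose proteins also bind poly(A)-binding protein directly, passed the test in 1 case, Tob2 at 6 h against 1 h. Tob1 had 64.8, 64.6 and 61.8 CPM at 0 h, 67.6, 77.4 and 66.9 at 1 h and 75.1, 70.8 and 66.3 at 6 h. Its libraries of 1 h and of 6 h all lay above those of 0 h, yet the differences of 0.15 at 1 h (95% interval 0.02 to 0.27, edgeR adjusted p = 0.190) and 0.15 at 6 h (95% interval 0.03 to 0.27, edgeR adjusted p = 0.0582) did not pass. The latter passed under some alternatives, with adjusted p-values between 0.0133 and 0.0472. Tob2 had 24.3, 33.9 and 29.0 CPM at 0 h, 22.5, 31.8 and 26.2 at 1 h and 28.9, 35.5 and 30.8 at 6 h, with overlap between all groups. Its differences from 0 h were -0.11 at 1 h (95% interval -0.24 to 0.01, edgeR adjusted p = 0.326) and 0.13 at 6 h (95% interval 0.01 to 0.26, edgeR adjusted p = 0.0942). It was higher at 6 h than at 1 h by 0.25 (SE 0.06, edgeR adjusted p = 0.00532; 0.509 without the block).

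Within the BTG/TOB family, Btg2 made up 52.7 ± 2.53% at 0 h, 52.8 ± 3.05% at 1 h and 64.0 ± 3.34% at 6 h per length (SD, n = 3). Tob1 took 31.0 ± 2.32%, 29.4 ± 2.23% and 23.4 ± 2.98%. The family sum was 90.2 ± 6.12, 106 ± 13.6 and 133 ± 10.1 CPM per kb, and the 6 h libraries (122.5 to 142.6) lay above those of 1 h (92.6 to 119.7) and 0 h (84.3 to 96.5). These values were not tested.

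The genes most like each called member were named by Pearson's r over the 9 libraries, in log2 CPM with the replicate means removed, among 10899 genes with a mean of at least 5 CPM. For Zfp36 they were Erf (0.9899), Nfil3 (0.9865) and Cavin1 (0.9853), and for Zfp36l1 Jag1 (0.9842), Rgmb (0.9762) and Sh3bp4 (0.976). For Zfp36l2 they were Trmt44 (0.9966), Lig4 (0.9949) and Cwc25 (0.9935), for Btg1 Zxdc (0.9979), Cdkn1a (0.9885) and Prickle1 (0.9871), and for Btg2 Gpcpd1 (0.999), Haghl (0.9971) and Ppox (0.9968). Btg3 was most like Znrf1 (0.9933) and Mcrs1 (0.9909), and Tob2 most like Ddx11 (0.9934), Slc31a2 (0.9908) and Itga1 (0.9906). No member was among the nearest genes of another. Zfp36 itself had a mean below 5 CPM, so it could not be listed as near another member. Its highest r with a member (0.963, with Btg1) was below each r listed above. Between members, r ranged from -0.797 (Zfp36l2 and Btg3) to 0.963 (Zfp36 and Btg1). The points share time points and libraries, and the values are a description.

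The decay machinery list held 29 genes, all tested, of CCR4-NOT, PAN2-PAN3, poly(A)-binding proteins, decapping and the exonuclease Xrn1, and also Parn, Gigyf2, Eif4e2 and Eif4enif1. It had no called gene at 1 h. There edgeR called 0 of 29, against 1.36% of all tested genes higher and 2.14% lower, so that this count is near the background. At an unadjusted p under 0.05, 9 were lower and 0 higher, and DESeq2 with the block called 1. The median log2 fold change was -0.08 against 0.0007 over all tested genes. At 6 h against 0 h, 2 of 29 were higher and 11 lower, against 17.4% and 17.5% of tested genes, with a median of -0.10. The lower genes included the decapping enzyme Dcp2 (-0.41, SE 0.06, edgeR adjusted p = 0.000293), Pabpc4 (-0.32) and Pabpc1 (-0.26), which encode poly(A)-binding proteins, and the deadenylase Cnot6 (-0.26). The decapping scaffold Edc4 was higher (0.25, SE 0.05, edgeR adjusted p = 0.00113). The count of 13 was 8 without 0 h replicate 1 and 7 without 0 h replicate 3 or 6 h replicate 1.

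Between 1 h and 6 h, 5 of the 29 machinery genes were higher and 10 lower, against 18.0% and 17.5% of tested genes, so that the share higher was near the background. The largest changes were a rise of the ubiquitin ligase Cnot4 (0.35, SE 0.05, edgeR adjusted p = 0.000345) and a fall of Pabpc4 (-0.33, SE 0.04, edgeR adjusted p = 0.000122), followed by Edc4 (0.26), Dcp1b (0.23) and Cnot10 (-0.21). The split was 6 higher and 4 lower with library totals in place of TMM, and 3 higher and 11 lower with GC content and length trends removed. The count of 15 was 7 or 6 when 1 h replicate 1 or 2 was left out, and 9 or 8 when 6 h replicate 1 or 2 was left out. Without the block edgeR called 0 machinery genes in each of the 3 comparisons (4, 10 and 9 at an unadjusted p under 0.05), and DESeq2 without the block called 0, 1 and 1.

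Of 15 other factors that bind AU-rich or related elements or cleave mRNA, 13 were tested, and Zfp36l3 and Btg4 did not pass the filter. At 1 h, 2 were higher and 1 lower (1.36% and 2.14% of tested genes). At 6 h against 0 h 2 were higher and 6 lower (17.4% and 17.5% of tested genes), and at 6 h against 1 h 1 was higher and 7 lower (18.0% and 17.5%). Without the block edgeR called 0, 1 and 0 of this list (2, 5 and 4 at an unadjusted p under 0.05), and DESeq2 without the block 0, 3 and 1. The endonuclease gene Zc3h12a (regnase) was higher at 1 h by 0.90 (SE 0.17, edgeR adjusted p = 0.0105; 0.967 without the block) and at 6 h by 0.57, at 1.39 and 1.11 CPM against 0.746 CPM at 0 h. The call at 6 h was lost with DESeq2, which called 0 of this list higher at 6 h against 0 h with or without the block. At 1 h DESeq2 called 1 of this list higher with the block and 0 without it, where edgeR with the block called 2. N4bp1, which also encodes an endonuclease, was lower at 1 h (-0.35) and at 6 h (-0.49, SE 0.04, edgeR adjusted p = 4.57e-06; 0.0395 without the block). Rc3h1, the roquin gene, was higher at 1 h (0.27) and lower at 6 h than at 1 h (-0.40), and Pum2, Hnrnpd and Tial1 were lower at 6 h than at 0 h (-0.35, -0.25 and -0.25).

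Of the 9 genes for kinases and phosphatases that act on ZFP36 proteins, edgeR called 0 at 1 h (3 higher at an unadjusted p under 0.05, and 1 called by DESeq2 with the block). Of all tested genes, 1.36% were called higher and 2.14% lower at 1 h, so that this count too is near the background. At 6 h against 0 h 1 was higher and 2 were lower, against 17.4% and 17.5% of tested genes, which is near the background. Mapkapk3, which encodes a kinase of the p38 pathway, was lower (-0.41, SE 0.05, edgeR adjusted p = 6.22e-05; 0.0387 without the block), as was the phosphatase subunit Ppp2cb (-0.19), and the ERK gene Mapk3 was higher (0.31). At 6 h against 1 h, 3 were lower (17.5% of tested genes), led by Mapkapk3 (-0.41), and 0 were higher (18.0%), with 1 higher at an unadjusted p under 0.05 and 0 called higher by DESeq2.

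Transcripts known or proposed as AU-rich targets of the ZFP36 proteins were followed with a list of 32 genes, of which 26 were tested. Tnf, Csf2 and Cxcl2 had 0 counts, and Il1b, Il6 and Cxcl1 had 2, 9 and 14 counts over the 9 libraries. Of the 25 tested genes with an annotated 3′ UTR, 17 held TATTTAT and 10 the nonamer, for which such genes are known. At 1 h, 7 were higher and 3 lower, against 1.36% and 2.14% of tested genes, and the list's median difference was 0.02 (log2). At 6 h, 4 were higher and 17 lower than at 0 h (median -0.28), and 3 higher and 18 lower than at 1 h (median -0.46), against medians of -0.00008 and -0.0009 over all tested genes. The shares of all tested genes called were 17.4% higher and 17.5% lower, and 18.0% higher and 17.5% lower, in these comparisons. Without the block edgeR called 1, 3 and 5 genes of this list in the 3 comparisons. The list was also chosen with earlier results of these data known, so its counts are a description.

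Several of these transcripts rose at 1 h and were lower again at 6 h. Nfkbiz, an NF-kB cofactor gene, had 24.9, 24.9 and 27.1 CPM at 0 h, 173, 158 and 179 at 1 h and 46.8, 55.5 and 43.1 at 6 h. Its groups did not overlap, and it was higher at 1 h by 2.73 on the log2 scale (SE 0.09, edgeR adjusted p = 3.71e-09; 5.72e-05 without the block) and lower at 6 h than at 1 h by -1.81. Ptgs2, the cyclooxygenase gene, was at 0.177 ± 0.0471, 1.25 ± 0.178 and 0.229 ± 0.0966 CPM (SD, n = 3), a difference of 2.81 at 1 h (SE 0.30, edgeR adjusted p = 0.00019; 0.0746 without the block). Pim3, a kinase gene, was higher at 1 h by 1.73, and the cytokine gene Lif by 0.55. The chemokine gene Ccl2 was higher at 1 h by 0.53 (SE 0.11, edgeR adjusted p = 0.0147; 0.9998 without the block), with 5.94, 3.675 and 6.41 CPM at 0 h, 8.28, 4.59 and 10.9 at 1 h and 1.51, 1.07 and 2.28 at 6 h. Its libraries of 0 h and 1 h overlapped, and those of 6 h lay below both.

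Jun was lower at 1 h already, and Plaur and Ccl2 ended below their 0 h levels. Jun was at 147 ± 29.0, 78.2 ± 16.6 and 76.2 ± 11.0 CPM, with differences from 0 h of -0.91 at 1 h (SE 0.06, edgeR adjusted p = 2.9e-06; 0.438 without the block) and -0.94 at 6 h. At 6 h against 0 h, Plaur, the urokinase receptor gene, was lower by -2.12 (SE 0.25, edgeR adjusted p = 3.66e-05; 0.171 without the block) and Ccl2 by -1.74 (SE 0.12, edgeR adjusted p = 4.24e-07; 0.0632 without the block). Plaur was low, with 0.926, 0.4999 and 2.36 CPM at 0 h and 0.122, 0.187 and 0.523 at 6 h. These groups overlapped, although each replicate fell. Against 1 h, the differences at 6 h were -2.48 for Ptgs2, -2.27 for Ccl2 and -2.09 for Plaur. Whether the decay regulators act on these transcripts was not tested.

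**Figure D4:**
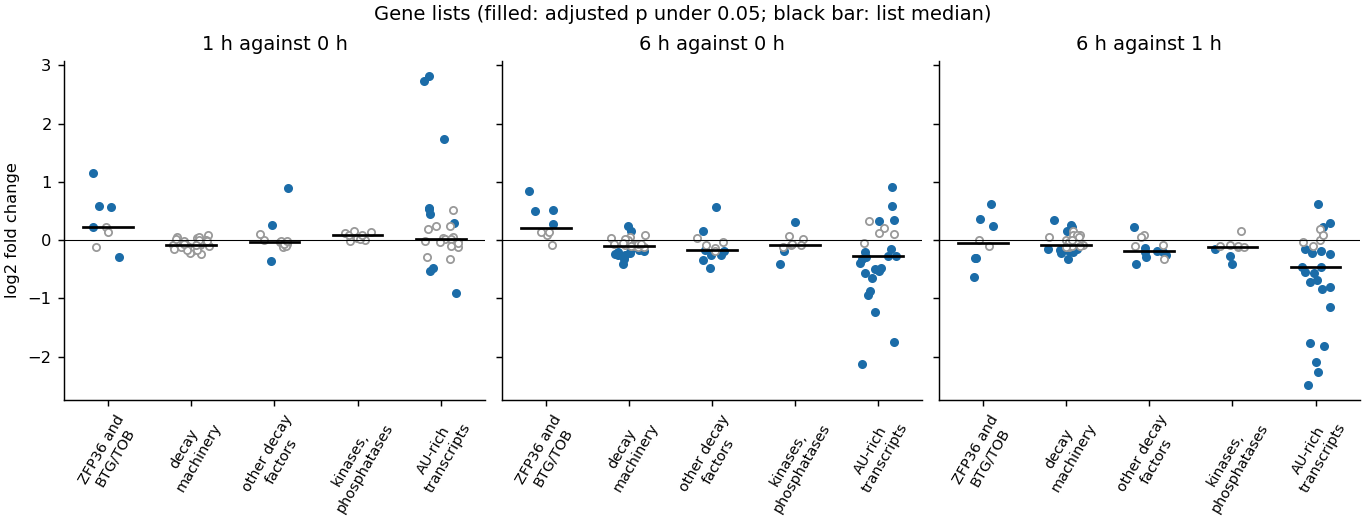
Fitted log2 fold change of each tested gene of the members and of 4 lists in the 3 comparisons, with filled points for an edgeR adjusted p under 0.05 and black bars for the list median. The AU-rich transcripts spread widest, from 2.81 for Ptgs2 at 1 h to -2.48 for the same gene at 6 h against 1 h. No point of the decay machinery is filled at 1 h, when 1.36% of all tested genes were called higher and 2.14% lower.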

How the data were processed

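mRNA of cultured NSCs (9 libraries, 3 for each of 3 times after EGF withdrawal, grouped by the time in the labels) was measured by RNA-seq. The authors deposited raw counts of paired-end reads per Ensembl gene, aligned with STAR 2.5.3a to mm10 (GRCm38) and not normalised. Total counts were 65871454 to 105592597 per library, and low counts limit the precision for rare transcripts. Whether counting used the strand is not given in the sources used here. Symbols, exons and 3′ UTRs came from GENCODE M21, which named 48058 of 48526 identifiers, and promoters from RefSeq (7 of 8 members matched).

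Genes were kept with filterByExpr (minimum count 10, total 15), scaled with TMM and fitted with the quasi-likelihood test of edgeR 4.0.16 in R 4.3.3 over 9 libraries, with the replicate number as a block. Standard errors were derived from the F statistic. Alternatives used DESeq2 1.42.0, as the authors' own test was DESeq2 1.22.1, with and without the block, and in edgeR no block, RLE scaling, library totals, no filter, a mean of at least 1 CPM, the 6 libraries compared, GC content and length trends removed (splines, 4 degrees of freedom), omission of each library in turn, and stricter calls (adjusted p under 0.01, or a log2 change of 1 or more). Log2 CPM used a prior count of 2. Fits were tested on simulated data. Python 3.11.15 (numpy 2.4.6, pandas 2.3.3, and for plots matplotlib 3.10.9) was used for the rest.

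Libraries of the same number deviated together from their time point means (9 pairs, r of 0.733 to 0.800), so the numbers pair the libraries. For 18 pairs of unlike number r was -0.462 to -0.314. Deviations cancel within a time point, so negative values there follow from the positive ones and are no separate evidence. What libraries of the same number share is not stated. The common biological coefficient of variation was 0.0627 with the block and 0.277 without it. No pair of libraries was a near copy of the same counts (chi-square per degree of freedom of at least 12.5). This check cannot detect swapped labels. The members and the lists were chosen with earlier results of these data known. All members were named, and from each other list up to 5 called genes per comparison with the largest absolute change and the same direction in 3 of 3 replicates, and for each called member the 3 genes nearest to it, except that some items are not reported here.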

Additional observations from a re-analysis of the deposited data

How the results depend on the processing

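Over 18 alternatives fitted for each member and comparison, 378 results kept their direction and their side of the threshold, 36 kept the direction but no longer passed, 9 passed anew and 9 changed sign. With no replicate block, edgeR called 0, 2 and 0 members at 1 h against 0 h, 6 h against 0 h and 6 h against 1 h (5, 4 and 6 with it), 0 machinery genes at either 6 h comparison (13 and 15 with it) and 1, 3 and 5 AU-rich transcripts (10, 21 and 21 with it). DESeq2 without the block called 2 and 2 members at 1 h against 0 h and 6 h against 1 h, 1 and 1 machinery genes in the 6 h comparisons, and 5, 8 and 9 AU-rich transcripts. Requiring a log2 change of at least 1 left 1, 0 and 0 members, 0 and 0 machinery genes at 6 h and 3, 3 and 6 AU-rich transcripts. At an adjusted p under 0.01, 8 and 6 machinery genes were called in the 6 h comparisons, and 6 at 6 h against 1 h when the 6 libraries compared were fitted alone. At 1 h, machinery calls were 0 and became 1 with DESeq2 with replicate block, 1 with library totals and 2 with no filter.

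Leaving out each library in turn gave 3 to 5, 4 to 5 and 5 to 6 members in the 3 comparisons, 0 to 1, 7 to 16 and 6 to 14 machinery genes and 8 to 13, 16 to 22 and 18 to 21 AU-rich transcripts. Sign changes occurred only in member results that had not passed. The Tob1 difference of 6 h against 1 h (0.002) became -0.0067 and -0.0075 with DESeq2 with and without the block, -0.0059 with RLE scaling, -0.0029 in the 6 libraries compared, and lay between -0.059 and 0.070 when 1 library was left out (lowest without 1 h replicate 1). The Zfp36l2 difference at 6 h became -0.0047 with GC content and length trends removed, and that of Btg3 lay between -0.16 and 0.037 when 1 library was left out (highest without 6 h replicate 3). The cause was not tested. Calls over all genes at 1 h against 0 h were 257 higher and 404 lower, 8 and 0 without the block, and between 126 and 325 higher and 84 and 561 lower when 1 library was left out.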
